A study of Mus musculus with 36 samples.

Results

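The 8 genes described here build or line the cornified envelope, the cross-linked protein shell of squamous epithelium, and they were followed in mouse small intestinal organoids. They are Lor (loricrin), Ivl (involucrin), Sprr1a (a small proline-rich protein), Cnfn (cornifelin), the transglutaminases Tgm1 and Tgm2, and the plakins Evpl (envoplakin) and Ppl (periplakin). The set is 8 of the 52636 genes counted, found by symbol and Ensembl identifier, and it was chosen by the measured levels of Lor and Tgm1, which were lower with an antibody against Ptk7. The antibody differences are therefore given as a description without a test. Of the 8 genes, 7 reached a mean of 0.5 CPM (counts scaled to the same library size) over all libraries and passed the filter on low counts. Cnfn was the lowest of them at 2.44 CPM, and Ivl was not detected at 0.0918 CPM.

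In skin and other squamous linings, cells that reach the surface replace their membrane with a cornified envelope. Plakins form its first scaffold under the membrane next to desmosomes, involucrin lines it, and loricrin and the small proline-rich proteins are added as reinforcement. Transglutaminases such as Tgm1 join these proteins by bonds that detergents do not break. The intestine has a single-layered columnar epithelium that does not cornify, although Tgm2 and the plakins are also used in such tissues.

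The organoids were grown in Matrigel from jejunal crypts of 6 C57BL/6 mice and received either control IgG or anti-Ptk7, an antibody against the receptor Ptk7. IgG was given with the complete medium (IntestiCult), with QCM, the medium conditioned by quiescent mouse embryonic fibroblasts, with SCM, the medium conditioned by senescent ones (both mixed with the complete medium), and with Wnt5a, a ligand of the noncanonical Wnt pathway. Anti-Ptk7 was given with SCM and with Wnt5a. Each of these 6 conditions had 6 replicates, numbered 1 to 6 in the labels, so all 36 libraries carry an antibody and none is untreated. The sources used here do not tie an age to the mice that gave these organoids, complete media with anti-Ptk7 was not analysed here, and the libraries are cultures of whole organoids, in which fewer cells of a type and less RNA per cell cannot be told apart.

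Library totals lay between 9581589 and 21029769 counts, so the precision for Lor, Tgm1 and Cnfn, with 2836, 1591 and 1159 counts in all, was also limited by counting. All 16 intestinal epithelial markers examined reached 0.5 CPM, with a median sum of 11627 CPM in complete media, 14080 in QCM, 18461 in SCM, 16653 in SCM with anti-Ptk7, 18691 in Wnt5a and 19033 in Wnt5a with anti-Ptk7. Of 9 markers of squamous epithelium, 5 did, while Trp63, the master regulator of stratified epithelium, had no count in any library and Krt1, a keratin of cornifying layers, had 1. The summed level of these 9 markers had a median of 18.4 CPM in complete media, 27.3 in QCM, 39.8 in SCM, 29.8 in SCM with anti-Ptk7, 53.3 in Wnt5a and 42.0 in Wnt5a with anti-Ptk7, most of it from Dsg3 and Krt10. Over all libraries these sums lay between 13.8 and 164.9 CPM, and the part of the intestinal and squamous sums in the results below was not tested. Fibroblast markers reached 0.5 CPM for Pdgfrb alone of 9, with no count for Col3a1, Dcn and Thy1. Their sum had a median of 2.34 CPM in complete media, 2.80 in QCM, 1.47 in SCM and 2.35 in Wnt5a. Under the antibody against Ptk7 it was 4.61 CPM in SCM, where all libraries (3.07 to 8.02 CPM) were above all IgG libraries (0.897 to 2.70 CPM), and 3.34 CPM in Wnt5a, with overlapping ranges. Of 6 leukocyte markers, Cd14 and Itgam did, with sums between 10.4 and 25.6 CPM, Cd14 for the most part, and no count for Adgre1.

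The stretches of sequence just upstream of the transcription start are shown for Lor, Sprr1a, Cnfn and Tgm1, 4 of the 5 genes with a log2 difference below 0 with anti-Ptk7 in SCM (Ppl had no entry), and for Ivl, which was not detected. They come from RefSeq on GRCm38.p6, all on the minus strand, and leave out bases that GENCODE annotates as exon. Those of Lor, Ivl and Cnfn end at the base before the RefSeq start, while that of Sprr1a leaves out the last 14 bases before it and that of Tgm1 the last 2. Capitals mark the letters TGANTCA, the core recognised by AP-1 factors, which are known regulators of envelope genes in keratinocytes, and the letters TATAAA of a TATA box.
Lor: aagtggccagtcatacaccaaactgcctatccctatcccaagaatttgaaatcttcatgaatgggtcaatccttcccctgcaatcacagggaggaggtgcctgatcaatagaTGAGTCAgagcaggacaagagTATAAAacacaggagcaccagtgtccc
Sprr1a: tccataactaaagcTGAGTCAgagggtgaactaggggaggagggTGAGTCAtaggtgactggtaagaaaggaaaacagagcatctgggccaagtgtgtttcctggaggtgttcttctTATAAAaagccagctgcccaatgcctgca
Ivl: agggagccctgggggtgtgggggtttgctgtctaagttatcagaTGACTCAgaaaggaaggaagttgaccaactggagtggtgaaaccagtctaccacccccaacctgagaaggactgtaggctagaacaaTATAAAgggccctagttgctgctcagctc
Cnfn: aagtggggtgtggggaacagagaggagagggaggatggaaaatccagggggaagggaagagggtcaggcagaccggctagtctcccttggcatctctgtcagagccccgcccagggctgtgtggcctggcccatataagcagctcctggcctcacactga
Tgm1: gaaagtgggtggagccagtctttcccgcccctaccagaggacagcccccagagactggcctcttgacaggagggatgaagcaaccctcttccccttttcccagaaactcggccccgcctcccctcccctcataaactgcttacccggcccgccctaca

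The stretches lie at chr3:92083143-92083302 for Lor, chr3:92485896-92486041 for Sprr1a, chr3:92573736-92573895 for Ivl, chr7:25369725-25369884 for Cnfn and chr14:55713495-55713652 for Tgm1, upstream of the exons of each gene apart from Tgm1, of which another annotated transcript starts further upstream. Windows of 250 bases before to 50 bases after the start were searched on both strands, and 5 of the 8 genes had such a window, Tgm1 2 of them. The letters TGANTCA stood once in the Lor window, from position -48 counted from the RefSeq start, and once in that of Ivl, from position -116. Sprr1a had them at both -146 and -116. They were not in the windows of Cnfn and Tgm1, and 7.81% of all 32851 windows held them. The letters TATAAA stood at -27 in Lor, -43 in Sprr1a and -29 in Ivl, and in 13.6% of all windows. GGAATG, the letters of TEAD factors, occurred in no window of the 5 genes and in 14.7% of all windows, and AACCGGTT, those of the Grainyhead factors, in no window of the 5 and in 0.146% of all. The motifs do not overlap one another here. These matches describe letters in a window, and Lor and Sprr1a shared the AP-1 letters with Ivl, which was not detected.

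Lor encodes loricrin, the main reinforcing protein of the epidermal envelope. Its gene is on chromosome 3 (GRCm38, 92080271 to 92083142), in the same stretch of the chromosome as Sprr1a (92483952 to 92485895) and Ivl (92570902 to 92573735). In complete media Lor lay between 0.564 and 6.68 CPM with a median of 3.09, and in QCM between 2.02 and 11.4 CPM with a median of 5.09. In SCM the lowest library had 3.85 CPM, the median was 10.1 and the highest was 16.9, and in Wnt5a the values were 6.41, 9.43 and 15.7 CPM. The ranges of SCM and complete media overlap, as do those of Wnt5a and complete media, where the lowest Wnt5a library lies just under the highest complete media library. With the same replicate number compared, Lor was higher than in complete media in 6 of 6 libraries of each medium.

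Lor rose 3.11-fold in SCM, from 3.16 ± 2.35 to 9.82 ± 4.50 CPM (mean ± SD, n = 6; log2 fold change 1.64 ± 0.42 SE, adjusted p = 0.00856). In Wnt5a it rose 3.10-fold to 9.78 ± 3.19 CPM (1.63 ± 0.42, adjusted p = 0.00469). These are edgeR quasi-likelihood tests with Benjamini-Hochberg adjustment over the 15497 genes tested, and a call needs both an adjusted p below 0.05 and a change of more than 1.5-fold. The call for Lor held in both media under each alternative that could be fitted, with adjusted p between 1.08e-05 and 0.0372 in SCM and between 3.1e-06 and 0.0185 in Wnt5a. The SCM and Wnt5a libraries with IgG are also the reference of the antibody differences for which Lor and Tgm1 were picked, so for these 2 genes the tests against complete media are not independent of that choice.

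Sprr1a encodes a small proline-rich protein that bridges other envelope proteins and is known as a stress and injury gene in several epithelia. In complete media it lay between 4.00 and 8.14 CPM with a median of 5.45, in SCM between 7.10 and 24.7 with a median of 9.88, and in Wnt5a between 5.50 and 17.6 with a median of 9.18. The lowest 2 SCM libraries lie inside the range of complete media, and the highest, replicate 1, stands well above the next at 12.5 CPM. Sprr1a was called higher in SCM (5.58 ± 1.55 to 11.9 ± 6.59 CPM; log2 fold change 1.10 ± 0.37, adjusted p = 0.0464 in edgeR). This call did not hold with the study's own kind of test, voom with limma on quantile-normalized counts (adjusted p = 0.126), with voom on TMM-scaled counts (0.0817) or with no filter on low counts (0.0647). It was also lost without SCM replicate 1, 3 or 6 or without complete media replicate 2, 3, 4, 5 or 6, where adjusted p lay between 0.0541 without SCM replicate 6 and 0.232 without SCM replicate 1. In Wnt5a the edgeR log2 fold change of Sprr1a was 0.86 (95% interval 0.11 to 1.61, adjusted p = 0.0939), and the gene was called in a fit with replicate number as block (adjusted p = 0.00738) and with only the compared conditions (0.0296, alternatives up to 0.278).

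Cnfn encodes cornifelin, a small cysteine-rich envelope protein. It was close to the limit of counting in complete media, where the libraries held 44 counts in all, 34 of them in replicate 1 and none in replicates 3 and 6. The values there ran from 0 to 3.55 CPM with a median of 0.164, against 1.05 to 22.1 CPM with a median of 3.15 in SCM and 0.849 to 9.93 CPM with a median of 2.83 in Wnt5a. Replicate 1 was by far the highest library in each of these conditions. Cnfn passed the filter on low counts through the media in which it was high, so its tests are read with that limit. The edgeR log2 fold change was 3.21 ± 0.95 in SCM (adjusted p = 0.0226, and 0.0265 with no filter) and 2.42 ± 0.94 in Wnt5a, where the call was missed (adjusted p = 0.0614) but was made with the replicate block (3.12 ± 0.57, adjusted p = 7.71e-05), without complete media replicate 1 (4.45, adjusted p = 0.0029, and 5.24 in SCM) and without Wnt5a replicate 2 (2.64, adjusted p = 0.046). The SCM call was lost without SCM replicate 1, where the log2 fold change was 2.17 (adjusted p = 0.163), and without complete media replicate 2, 3, 4 or 6 (adjusted p between 0.0513 and 0.0563). It was also missed with voom on quantile-normalized counts (adjusted p = 0.052) and on TMM-scaled counts (0.0533).

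Tgm1 encodes the membrane-bound transglutaminase of keratinocytes and is mutated in a form of ichthyosis. In complete media the libraries held 0.148 to 4.13 CPM with a median of 1.51, in SCM 2.04 to 8.53 with a median of 5.54, and in Wnt5a 2.78 to 9.54 with a median of 5.85. Each SCM and Wnt5a library was above the complete media library of its number, although the ranges overlap. Tgm1 rose in Wnt5a from 2.08 ± 1.64 to 6.19 ± 2.78 CPM (log2 fold change 1.57 ± 0.58, adjusted p = 0.0486 in edgeR). The value is near the threshold: the call was lost without complete media replicate 2, 3, 4 or 6 or Wnt5a replicate 1, 4, 5 or 6, with adjusted p between 0.0569 and 0.112. It was lost as well with library size scaling (adjusted p = 0.0531), with no filter (0.071) and without the number 1 libraries (0.0604). In SCM the log2 fold change was 1.44 (95% interval 0.26 to 2.62, adjusted p = 0.106 in edgeR), and the gene was called with the replicate block (1.54 ± 0.53, adjusted p = 0.0425; over the alternatives adjusted p went up to 0.203).

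Ppl and Evpl encode the plakins that start the envelope, and both had more counts here than Lor, Cnfn or Tgm1, as CPM not divided by transcript length. Ppl lay between 24.9 and 54.6 CPM in complete media (median 41.5), between 40.9 and 83.6 in SCM (median 69.1) and between 62.9 and 136.4 in Wnt5a (median 71.4). It was the one detected gene whose Wnt5a libraries were all above all complete media libraries, which was so for 6.85% of all genes tested. Ppl rose 2.08-fold in Wnt5a (log2 fold change 1.06 ± 0.25, adjusted p = 0.00215 in edgeR). In SCM its log2 fold change was 0.70 (95% interval 0.20 to 1.21, adjusted p = 0.0594 in edgeR, 0.000122 with the replicate block, up to 0.159 over the alternatives). The SCM call was also made with DESeq2 (adjusted p = 0.0359), with at least 10 counts in every library (0.0472), with only the compared conditions (0.0224), and without SCM replicate 3 (0.0329) or complete media replicate 1 (0.0372).

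Evpl held 10.1 to 22.5 CPM in complete media (median 13.4) and 16.8 to 46.98 CPM in Wnt5a (median 27.01), with overlapping ranges. It rose 2.19-fold in Wnt5a (14.2 ± 4.48 to 31.1 ± 12.99 CPM; log2 fold change 1.13 ± 0.28, adjusted p = 0.00301 in edgeR). In SCM Evpl lay between 12.8 and 33.98 CPM and its log2 fold change of 0.60 was not called (95% interval 0.04 to 1.17, adjusted p = 0.167). The Wnt5a calls for Ppl and Evpl held under each alternative that could be fitted, with adjusted p up to 0.0148 and 0.0153.

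Tgm2, tissue transglutaminase, is a broadly expressed enzyme that is not specific to squamous cells. Its means in the IgG conditions were close together, at 56.4 ± 4.70 CPM in complete media, 55.1 ± 12.8 in QCM, 56.7 ± 11.02 in SCM and 54.8 ± 11.4 in Wnt5a. The 95% intervals of its log2 fold change against complete media were -0.33 to 0.26 in QCM, -0.29 to 0.30 in SCM and -0.33 to 0.25 in Wnt5a. Tgm2 overlaps Rprd1b and Gm20412 on the opposite strand, and since the library preparation does not mark strand, reads of these genes cannot be told apart where they overlap.

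**Figure D1:**
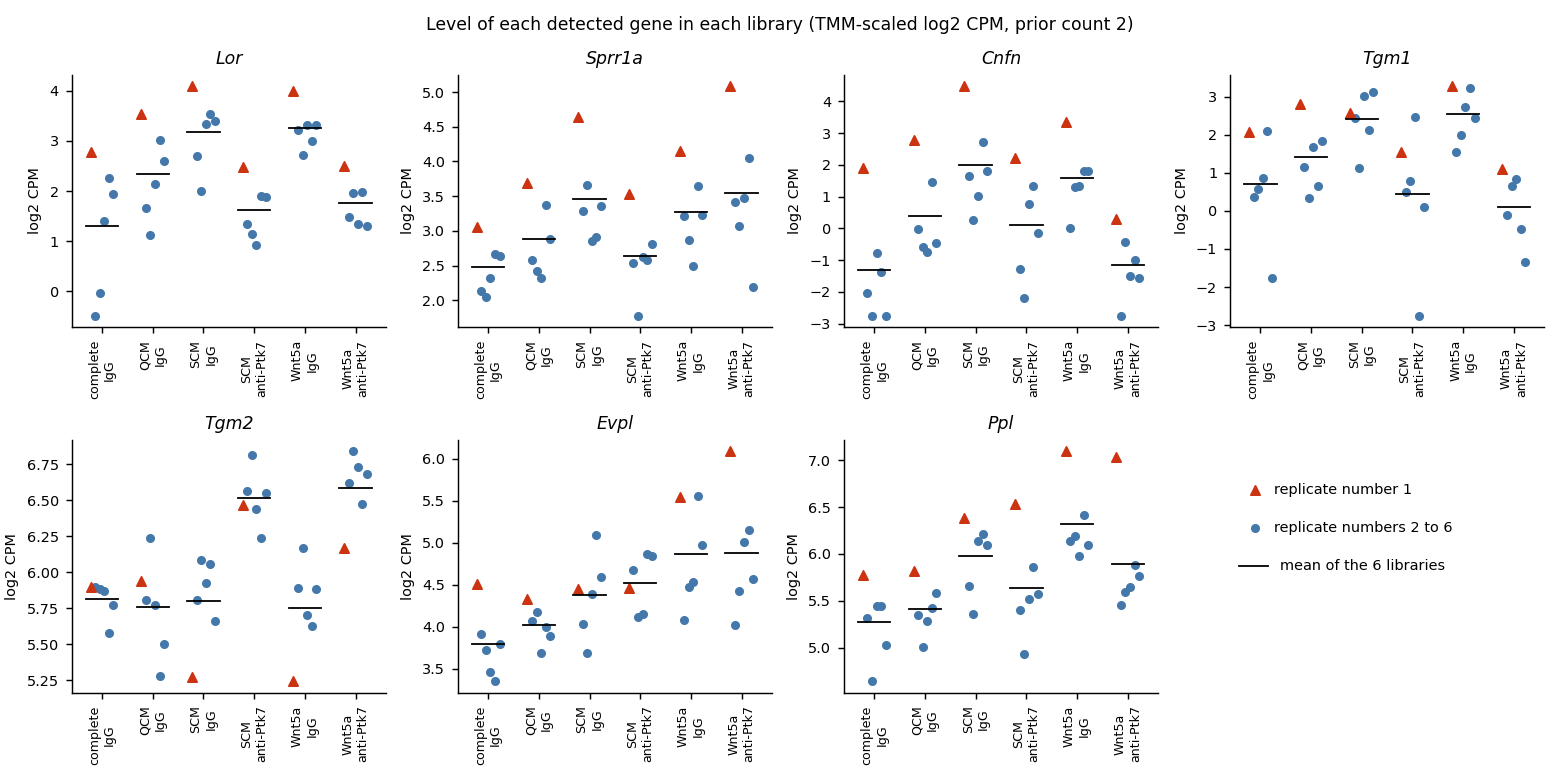
Level of the 7 detected genes in each library, as TMM-scaled log2 CPM with a prior count of 2 on the vertical axis and the 6 conditions on the horizontal axis. Red triangles are replicate number 1, blue dots numbers 2 to 6 and black lines the mean of the 6 libraries. Lor, Cnfn and Tgm1 are high in SCM and Wnt5a with IgG and lower with anti-Ptk7, Tgm2 is higher with anti-Ptk7, and the triangle is the highest point in 6 of 6 conditions for Lor, Sprr1a, Cnfn and Ppl.

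Of the 7 genes tested, 3 were called higher in SCM (Lor, Sprr1a and Cnfn) and none lower, where 4.96% of all genes tested were called higher and 6.08% in either direction. In Wnt5a 4 were called higher (Lor, Tgm1, Evpl and Ppl), where 8.29% of all genes were called higher and 10.2% in either direction. The 7 genes had a median log2 fold change of 1.10 in SCM and of 1.13 in Wnt5a, beside 0.0068 and 0.0051 over all genes tested. Cnfn passed the filter on low counts through the media in which it was high. Lor and Tgm1 were picked by antibody differences that use these same SCM and Wnt5a libraries. These medians and counts, and those of the block fit, are therefore a description. In the fit with the replicate block, 5 of the 7 were called higher in SCM (Tgm1 and Ppl in addition) and 6 in Wnt5a (each but Tgm2), where that fit called 5.82% and 8.62% of all genes higher. Both comparisons share the complete media libraries.

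In QCM none of the 7 genes was called against complete media with edgeR or voom with limma, and none of the 5 to which DESeq2 gave an adjusted p, which Tgm1 and Cnfn did not get. EdgeR called 0.374% of all genes there. At an unadjusted p under 0.05 the count was 1, where 7.74% of all genes passed upward. It was Lor, with 5.76 ± 3.48 CPM in QCM and a log2 fold change of 0.87 (95% interval 0.01 to 1.73, adjusted p = 0.411). Lor, Sprr1a and Cnfn were higher in QCM than in complete media in 6 of 6 libraries of the same number. The share of all genes with 6 of 6 is not given here, so this and the other counts by replicate number are a description. Cnfn had 0.443 to 6.70 CPM in QCM (95% interval of the log2 fold change -0.41 to 3.42) and Sprr1a 4.87 to 12.7 CPM (-0.29 to 1.21). For Ppl the interval of the log2 fold change was -0.39 to 0.62, for Evpl -0.36 to 0.77 and for Tgm1 -0.67 to 1.71.

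Between SCM and QCM, the comparison of senescent with quiescent fibroblasts, none of the 7 genes was called with edgeR, voom with limma or DESeq2, where edgeR called 0.903% of all genes. The log2 fold changes ran from 0.04 for Tgm2, which was below 0 without QCM replicate 5 or 6 or SCM replicate 3 or 5, to 1.71 for Cnfn, which was 0.68 without SCM replicate 1 and 2.65 without QCM replicate 1. At an unadjusted p under 0.05 the count was 1, where 8.50% of all genes passed upward. It was Ppl, with a log2 fold change of 0.58 (95% interval 0.08 to 1.08, adjusted p = 0.212). Lor had 0.77 (-0.05 to 1.59, adjusted p = 0.335), and it was higher in SCM in 6 of 6 libraries of the same number, as were Cnfn and Ppl. With the replicate block Lor (0.83 ± 0.26, adjusted p = 0.0391) and Cnfn (1.73 ± 0.49, adjusted p = 0.0242) were called, where that fit called 2.74% of all genes higher. Without the number 1 libraries neither was called (adjusted p = 0.24 and 0.21, with no block). The SCM libraries of Lor also entered the choice of the set, and Cnfn passed the filter through the media in which it was high, so these calls are no independent evidence. Ppl had an adjusted p of 0.00344 with the block, at a change under 1.5-fold.

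**Figure D2:**
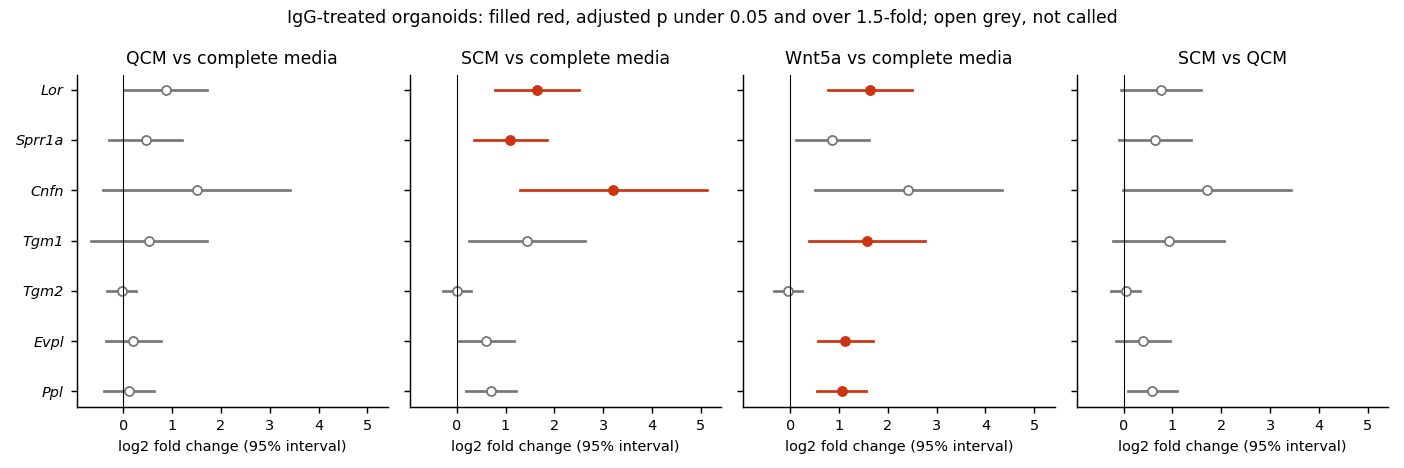
Log2 fold change of the 7 detected genes in the 4 comparisons among IgG-treated organoids, with 95% intervals from the edgeR fit on the horizontal axis. Filled red points were called (Lor, Sprr1a and Cnfn in SCM, Lor, Tgm1, Evpl and Ppl in Wnt5a), and open grey points did not.

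Ivl, involucrin, had 37 counts in 6 of the 36 libraries. In complete media 3 libraries held 6, 8 and 6 counts and 3 held none. Single libraries held 2 counts in SCM, 10 in Wnt5a and 5 in Wnt5a with anti-Ptk7. QCM with IgG and SCM with anti-Ptk7 had no count among 86024354 and 78371589 in all, which allows up to 0.0349 and 0.0378 CPM by counting error alone (3 counts over the 6 libraries). Ivl did not pass the filter and was not ordered among the conditions. With no filter it was not called in any of the 4 comparisons of media (adjusted p between 0.347 and 0.839).

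With anti-Ptk7 in SCM, Lor lay between 1.75 and 5.45 CPM with a median of 2.97, against 3.85 to 16.9 with IgG. Each anti-Ptk7 library was below the IgG library of its number, by 0.85 to 2.40 on the log2 scale, and 5 of the 6 were below the lowest IgG library. With anti-Ptk7 in Wnt5a, Lor lay between 2.31 and 5.50 CPM with a median of 3.19, so that all of its libraries were under the lowest IgG library at 6.41 CPM. The mean of 3.14 ± 1.37 CPM in SCM and 3.40 ± 1.22 CPM in Wnt5a with anti-Ptk7 stands beside 3.16 ± 2.35 CPM in complete media with IgG.

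Tgm1 with anti-Ptk7 in SCM had 0 to 5.41 CPM with a median of 1.42, and no count in replicate 5. All 6 libraries were below the IgG library of the same number, with a median difference of -1.48 in log2 CPM, but the range overlaps that of IgG, since replicate 4 had 5.41 CPM. The edgeR log2 difference was -1.48, and -2.07 without that library. In Wnt5a the anti-Ptk7 libraries held 0.25 to 1.99 CPM with a median of 1.11 and lay under each IgG library, of which the lowest had 2.78 CPM. Of the 7 genes, Lor and Tgm1 had such separate ranges in Wnt5a, which 1.43% of all genes tested showed in the downward direction. This is the contrast that chose them.

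Cnfn was also lower with anti-Ptk7 than with IgG. In SCM it was 1.58 ± 1.67 CPM with anti-Ptk7 against 6.29 ± 7.98 with IgG, and in Wnt5a 0.404 ± 0.387 against 3.68 ± 3.19. It was lower in 6 of 6 numbers in both media. The log2 difference in SCM was -1.99, and it was -0.96 without IgG replicate 1 and -2.67 without anti-Ptk7 replicate 1. Replicate 1 with anti-Ptk7 in Wnt5a, at 1.08 CPM, was above the lowest IgG library at 0.849 CPM, so the ranges overlap. The 6 anti-Ptk7 libraries in Wnt5a held 30 counts in all, with none in replicate 2.

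Sprr1a differed between the media. In SCM it was lower with anti-Ptk7 in 6 of 6 numbers, at 3.28 to 11.5 CPM and a mean of 6.53 ± 2.71 against 11.9 ± 6.59 with IgG. In Wnt5a it was higher in 5 of 6 numbers, at 4.44 to 33.8 CPM and a mean of 14.1 ± 10.4 against 10.2 ± 4.33, and replicate 6 alone was lower. The edgeR log2 difference was -0.87 in SCM and 0.47 in Wnt5a (-0.0079 without anti-Ptk7 replicate 1), and whether these differ is not tested here because the antibody contrasts chose the set.

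Tgm2 was higher with anti-Ptk7 in both media, where Lor, Cnfn and Tgm1 were lower. In SCM the anti-Ptk7 libraries held 75.4 to 112.6 CPM with a median of 91.1, all above the highest IgG library at 67.8 CPM, which was so for 0.736% of all genes tested. In Wnt5a they held 71.6 to 114.4 CPM with a median of 100.4, against 37.7 to 71.6 with IgG, so that the lowest anti-Ptk7 library and the highest IgG library meet. Within numbers Tgm2 was higher with anti-Ptk7 in 6 of 6 pairs in each medium, by 0.18 to 1.20 on the log2 scale in SCM and by 0.67 to 1.03 in Wnt5a. In complete media with IgG no library exceeded 59.6 CPM. The summed fibroblast markers were higher with anti-Ptk7 in SCM, mostly Pdgfrb (mean 1.10 CPM with IgG and 4.10 with anti-Ptk7). Pdgfrb had a mean of 2.09 CPM in complete media with IgG, and Col3a1, Dcn and Thy1 had no count in any library. Whether these markers bear on Tgm2 was not tested. No anti-Ptk7 library without SCM or Wnt5a was analysed here.

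For both plakins the anti-Ptk7 and IgG ranges overlapped. Evpl had 23.3 ± 5.22 CPM with anti-Ptk7 and 21.6 ± 7.31 with IgG in SCM, and 32.7 ± 18.6 against 31.1 ± 12.99 in Wnt5a, with numbers on both sides of 0. Its log2 difference in Wnt5a was 0.08, and -0.28 without anti-Ptk7 replicate 1. Ppl was lower in 5 of 6 numbers in SCM and in 6 of 6 in Wnt5a, with median differences of -0.39 and -0.43 on the log2 scale. Of the 4 plakin levels with anti-Ptk7, the means of Ppl (52.6 ± 21.4 and 64.2 ± 32.8 CPM) and of Evpl all lay above those of complete media with IgG.

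**Figure D3:**
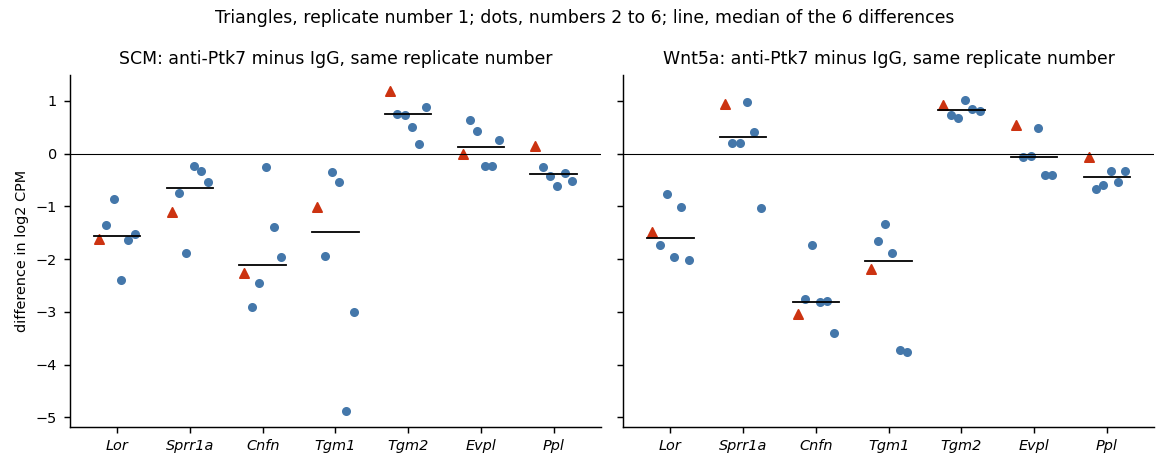
Difference in log2 CPM between anti-Ptk7 and IgG libraries of the same replicate number, for the 7 detected genes in SCM and in Wnt5a. Triangles are number 1, dots numbers 2 to 6 and lines the median of the 6 differences. Lor, Cnfn and Tgm1 lie below 0 and Tgm2 above 0 in each pair of both media, and Sprr1a lies below 0 in SCM and mostly above it in Wnt5a.

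Ordered by the mean log2 CPM of the 6 conditions, each neighbouring pair of conditions overlapped for Lor, Sprr1a, Cnfn, Tgm1, Evpl and Ppl. For Lor the order from the lowest was complete media with IgG, anti-Ptk7 in SCM, anti-Ptk7 in Wnt5a, QCM, SCM and Wnt5a with IgG. For Tgm1 the anti-Ptk7 conditions were the lowest, followed by complete media, QCM, SCM and Wnt5a with IgG. Sprr1a was highest in Wnt5a with anti-Ptk7 and Cnfn in SCM with IgG. For Tgm2 the one gap was between complete media with IgG and SCM with anti-Ptk7. Per kilobase of exon, the mean level over all libraries was 14.9 CPM per kb for Tgm2, 11.6 for Sprr1a, 8.39 for Ppl, between 3.28 and 3.63 for Lor, Cnfn and Evpl, 1.05 for Tgm1 and 0.0478 for Ivl.

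The replicate number was the other axis along which the genes differed. Number 1 was the highest library in 6 of 6 conditions for Lor, Sprr1a, Cnfn and Ppl, by a mean of 0.98, 0.98, 2.23 and 0.69 in log2 CPM above the condition mean. For Tgm1 number 1 was above the mean in 6 of 6 conditions and the highest in 3. Number 3 was the lowest for Ppl in 4 conditions and for Lor and Cnfn in 3 each. Tgm2 had its highest library in number 3 in 5 of 6 conditions, and number 1 was its lowest in 3. For Cnfn the deviation of number 1 from its condition mean ran from 1.46 to 3.19, and in SCM with IgG it had 22.1 CPM against 6.38 CPM in the next library.

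These numbers may stand for the 6 mice, but the sources used here do not say which number is which mouse, so a mouse and another factor shared by a number cannot be told apart. With all 6 number 1 libraries left out, an alternative chosen after seeing the data, 5 of the 7 genes were called higher in SCM (Lor, Sprr1a, Cnfn, Evpl and Ppl) and the same number in Wnt5a (these 5 genes). That fit called 5.12% of all genes higher in SCM and 7.30% in Wnt5a. The calls of Cnfn then rest on complete media libraries of 0 to 6 counts and on a filter it passed through the media in which it was high. The edgeR log2 fold change of Lor was then 1.75 (adjusted p = 0.0028) and 1.79 (adjusted p = 0.0014).

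**Figure D4:**
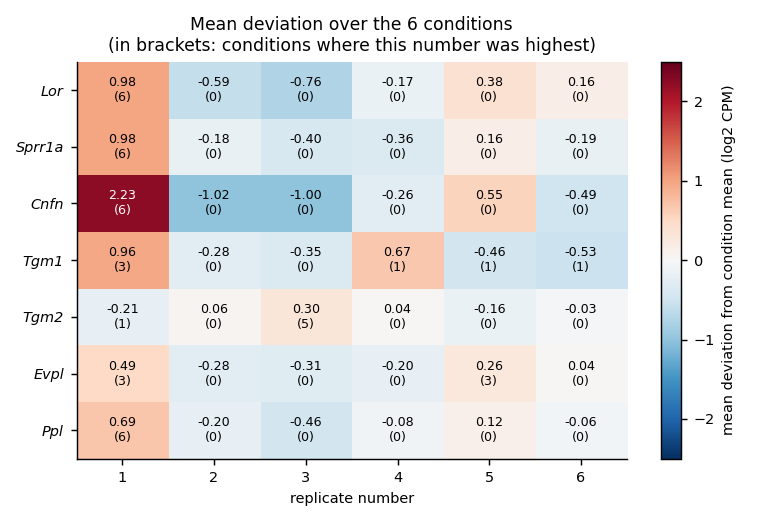
Mean deviation of each replicate number from its condition mean over the 6 conditions, in log2 CPM, for the 7 detected genes, with the number of conditions in which that replicate number was the highest library in brackets. Number 1 is the highest in 6 of 6 conditions for Lor, Sprr1a, Cnfn and Ppl, and number 3 in 5 for Tgm2.

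The genes whose log2 CPM followed Lor most closely over the 36 libraries, out of 12457 with a mean log2 CPM over 1, were Wfdc2 (Pearson r = 0.88), Tagln2 (0.87), the noncoding 4930461G14Rik (0.87), Ccn2 (0.86) and Adam8 (0.86). With the condition means removed these were between 0.78 and 0.87, so the likeness was also present among replicates of a condition. Tgm1 was followed less closely, by Tspan4 (0.68), Serpinb9b (0.64), Rrad (0.63), Ly6a (0.63) and 1110028F11Rik (0.63), and with condition means removed by 0.24 to 0.51. Within the set, Lor had r = 0.81 with Cnfn, 0.70 with Ppl, 0.59 with Tgm1 and with Sprr1a and -0.52 with Tgm2. With condition means removed these were 0.69 with Cnfn, 0.67 with Ppl, 0.27 with Tgm1, 0.59 with Sprr1a and -0.498 with Tgm2. Lor and Tgm1 were both picked by a difference between conditions. The libraries share their conditions and replicate numbers, so these values describe likeness and carry no test.

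The other genes of the cornification pathway were examined as 7 lists with 127 genes in all, of which 55 passed the filter. In QCM 2 of the 55 were called higher, where 0.355% of all genes were, and in SCM 13, where 4.96% were. In Wnt5a 21 were called higher, where 8.29% of all genes were, and between SCM and QCM 2, where 0.761% were. None was called lower in these comparisons. Their median log2 fold change in these comparisons was 0.13, 0.35, 0.52 and 0.30, beside 0.0232, 0.0068, 0.0051 and -0.0078 over all genes tested. In the fit with the replicate block 7 of the 55 were called between SCM and QCM. That fit called 2.74% of all genes higher there, and 496 of 15497 in either direction. Sprr2a1, Sprr2b and Krt14 passed the filter on low counts through the media in which they were high, so these counts and medians are a description. Of 48 further envelope proteins 8 were tested, and Sprr2a3, Sprr2a1, Sprr2b and Cst6 were called higher in both SCM and Wnt5a (for Sprr2a1 in SCM the adjusted p went up to 0.0659 over the alternatives). Sprr2a3, a small proline-rich protein like Sprr1a, went from 26.8 ± 10.6 CPM in complete media to 65.8 ± 20.7 in QCM, 197.7 ± 65.1 in SCM and 222.2 ± 85.4 in Wnt5a (log2 fold changes 1.30, 2.89 and 3.06, adjusted p = 0.0323, 6.14e-08 and 1.44e-08 in edgeR, the first up to 0.106 over the alternatives). It was also higher in SCM than in QCM (1.59 ± 0.30, adjusted p = 0.00437). Reads of Sprr2a1, Sprr2a2 and Sprr2a3 are uncertain, because the genes are near-identical copies.

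Of 12 desmosome and plakin genes tested, Dsg3 and Perp were called higher in SCM, and Dsg3, Plec, Pkp1, Macf1, Dsc2, Dsp, Jup, Dsg2 and Perp in Wnt5a, beside the Ppl and Evpl calls there. Dsg3, a desmosomal cadherin of squamous cells, had 7.26 ± 7.87 CPM in complete media and 55.1 ± 41.6 in Wnt5a (log2 fold change 2.94 ± 0.65, adjusted p = 0.00115 in edgeR). Its SCM call was near the threshold (adjusted p = 0.0482, up to 0.126 over the alternatives), and the calls of Perp in both media and of Macf1 and Jup in Wnt5a were lost under some alternatives because the change fell under 1.5-fold. Of 5 squamous keratins tested, Krt14, Krt6a and Krt4 were called higher in SCM and Krt14 and Krt6a in Wnt5a. Both voom fits lost the SCM calls of Krt14 and Krt4, and that of Krt4 was also lost without SCM replicate 1, with adjusted p up to 0.0572 and 0.154 over the alternatives. Krt14, a basal keratin, had 4 counts over the 6 complete media libraries, 129 in SCM and 306 in Wnt5a. Neither of the 2 other transglutaminases tested was called in any comparison. Among 8 tested barrier lipid genes Abhd5 was called higher in Wnt5a (0.60 ± 0.14, adjusted p = 0.00235), a change that was under 1.5-fold in 7 alternatives.

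Among 14 tested transcription factors of squamous cells, Grhl3, a Grainyhead factor required for the skin barrier, had 3.97 ± 2.18 CPM in complete media, 8.67 ± 2.26 in QCM, 19.97 ± 6.32 in SCM and 19.5 ± 3.58 in Wnt5a. It rose in SCM and in Wnt5a (log2 fold changes 2.34 and 2.302, adjusted p = 3.48e-06 and 2.06e-06 in edgeR) and was higher in SCM than in QCM (1.20 ± 0.29, adjusted p = 0.0304, up to 0.0958 over the alternatives). Ets1 rose in both media (1.51 and 2.57, adjusted p = 0.00349 and 2.82e-06, the first 0.052 with voom on quantile-normalized counts), and Grhl1 in Wnt5a (0.77 ± 0.27, adjusted p = 0.0358), a call lost in 9 alternatives with adjusted p up to 0.217. Of 6 tested proteases and inhibitors, Klk6, a kallikrein, and Cstb, a cystatin, were called higher in both media. The SCM calls were lost without SCM replicate 1 for both genes, and for Klk6 also without complete media replicate 3 or 4 (adjusted p up to 0.0564). Over the 14 factors the median log2 fold change was 0.0859 in SCM and 0.14 in Wnt5a, with 8 above 0 in each. Over the 6 proteases and inhibitors it was 0.42 in SCM, with 5 above 0, and 0.0205 in Wnt5a, with 3 above 0.

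With anti-Ptk7 in SCM 3 of the 55 were called lower and none higher in the fit without the replicate block, where 0.645% of all genes were called lower, and in Wnt5a 1 lower and 1 higher, where 0.432% and 0.452% were called. Grhl3 fell in SCM by 1.03 on the log2 scale to 9.76 ± 3.55 CPM (adjusted p = 0.0488, up to 0.126 over the alternatives), and Asprv1, a skin aspartic protease, fell by 2.11 (adjusted p = 0.0453, up to 0.124). Crct1, a cysteine-rich gene of the epidermal cluster, went from 47 counts with IgG to 2 with anti-Ptk7 in SCM (adjusted p = 0.0103), a ratio of 0.0441 (exact 95% interval 0.00519 to 0.168 for counting error), and from 86 to 7 in Wnt5a (adjusted p = 0.0145), a ratio of 0.0882 (0.0344 to 0.19). These intervals leave out the spread between cultures. Crct1 passed the filter on low counts through the IgG libraries, in which it was high, so its calls and the counts that hold them are a description. Cst6, a protease inhibitor of the envelope, was called higher, from 6.01 ± 1.43 to 12.9 ± 2.43 CPM in Wnt5a (1.10 ± 0.20, adjusted p = 0.00162). In SCM it went from 9.25 ± 2.32 to 14.8 ± 1.87 CPM (0.67 ± 0.19, adjusted p = 0.0511), and the replicate block called it higher there too (adjusted p = 0.00692). The block also called Krt6a lower, from 4.15 ± 2.68 to 1.80 ± 2.39 CPM in SCM and from 6.29 ± 3.88 to 2.75 ± 2.20 in Wnt5a (adjusted p = 0.0101 and 0.0265, against 0.296 and 0.317 without the block). Sprr2a3 was called in neither medium, with 205.4 ± 88.3 CPM under anti-Ptk7 in Wnt5a and 120.8 ± 61.2 in SCM (log2 difference -0.71, adjusted p = 0.189), where the fit with the replicate block did call it lower (adjusted p = 2.28e-05). These contrasts share their IgG libraries with the tests against complete media.

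**Figure D5:**
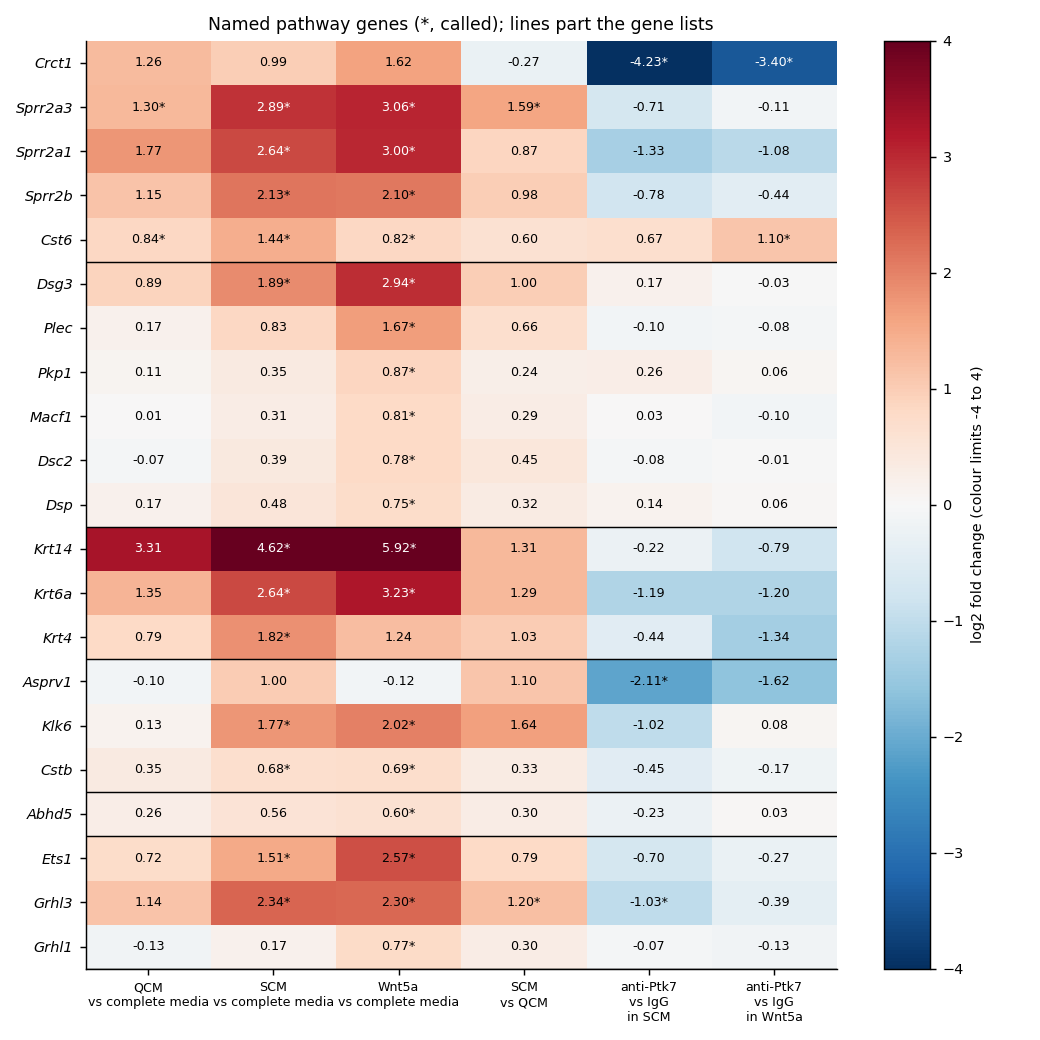
Log2 fold change of the named genes of the pathway lists in the 6 comparisons, with an asterisk where the gene was called and lines between the lists, which are envelope proteins, desmosomes and plakins, keratins, proteases and inhibitors, lipid enzymes and transcription factors. Calls are higher in the comparisons of media, and with anti-Ptk7 Crct1, Asprv1 and Grhl3 were called lower in SCM and Crct1 lower and Cst6 higher in Wnt5a. Colours stop at -4 and 4.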

How the data were processed

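RNA of 36 organoid cultures was sequenced after Smart-Seq V4 amplification and Nextera XT library preparation, which does not mark strand. The authors aligned the reads to mm10 with GSNAP through HTSeqGenie and deposited whole-number counts per gene and library without normalization. Their methods name reads within coding sequences; the gene annotation and the strand setting are not given in the sources used here. A series-wide table held the same values and was not used. Library totals had a median of 13490071 counts.

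Counts were analysed with R 4.3.3 and edgeR 4.0.16: filterByExpr kept 15497 of 52636 genes (about 10 counts in as many libraries as a condition has), TMM scaled the libraries, and glmQLFit with glmQLFTest estimated the means of the 6 conditions in one model. Adjustment was by Benjamini-Hochberg over every gene tested, and a call needed an adjusted p below 0.05 with a change of more than 1.5-fold. The study's own test was voom with limma on quantile-normalized counts, which is an alternative here (limma 3.58.1), as are DESeq2 1.42.0, other scalings and filters, the replicate block, only the compared conditions, and each library left out in turn. CPM are TMM-scaled, and log2 CPM has a prior count of 2. P values set differences between conditions against the spread between these cultures, which in the main fit includes differences between replicate numbers.

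Names, positions and lengths come from GENCODE on GRCm38 and promoter sequences from RefSeq (GRCm38.p6), which had no entry for Tgm2, Evpl and Ppl. The 8 genes and all lists were chosen with earlier results of these data known. Named are all 8 genes, at most 6 called genes per list by size of change, and the 5 genes most like Lor and Tgm1. Perp, Jup and Dsg2 are named beyond this rule, after their values were seen. Eppk1 was not found in the tables.

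The labels number the replicates 1 to 6 and the design text names 6 mice, so numbers were taken as pairing libraries. Deviations from the condition means correlated by 0.092 on average for the same number and by -0.018 for different numbers (0.241 for number 1, and 34 of 90 pairs over 0.1). The block is an alternative because the study's methods name none.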

Additional observations from a re-analysis of the deposited data

Results flagged for a closer look

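Among 42 groups of 6 libraries (7 genes in 6 conditions), 1 library stood apart from its group by Dixon's test at the 95% level, where chance gives about 1 in 20. It was replicate 1 of Wnt5a with anti-Ptk7 for Ppl, at 130.4 CPM against 58.7 CPM in the next library (gap over range 0.732 on the log2 scale, above the critical value). The same number was the highest library for Ppl in 6 of 6 conditions. The cause was not tested.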

How the results depend on the processing

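No fold change of the 7 genes changed direction while called: of 601 values under an alternative in the 4 tested comparisons, 554 kept their side of the threshold, 29 lost a call and 18 gained one. All 302 antibody differences stayed within 1 SD of the value given (the SD of log2 CPM between libraries, pooled over both conditions), a wide margin for Cnfn and Tgm1. They moved by more than 1.5-fold for Cnfn in SCM without replicate 1 of either condition (log2 values given above) and in Wnt5a with voom on quantile-normalized counts (-3.92 against -3.20), and for Tgm1 in SCM without anti-Ptk7 replicate 4 and with voom on TMM-scaled counts (-2.14 against -1.48). In SCM the count of 3 genes called was 1 with voom on quantile-normalized counts and with voom on TMM-scaled counts, 5 with the replicate block and 5 without the number 1 libraries. It was 1 without SCM replicate 1 or complete media replicate 2, 3, 4 or 6, and ran from 1 to 4 over all libraries left out. In Wnt5a the count of 4 was 2 with at least 10 counts in every library, a filter that removes Lor, Cnfn and Tgm1, 6 with the replicate block and 3 to 5 with a library left out. Between SCM and QCM the count of 0 was 2 with the replicate block and 0 with any library left out, as in QCM. Under that filter 2 of the 4 genes left were lower with anti-Ptk7 in SCM and 1 in Wnt5a, instead of 5 and 4 of 7, and 5 and 4 to 6 with a library left out. The block left the counts in QCM and of lower antibody differences as they were.

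Of the pathway genes, the 2 called in QCM became 0 with either voom fit, 1 with upper-quartile scaling, library size scaling, no filter or only the compared conditions, 5 with the replicate block and 0 to 3 with a library left out (0 without QCM replicate 1, 3 or 5 or complete media replicate 3, 4, 5 or 6, 1 without replicate 2 of either). In SCM 13 became 8 with at least 10 counts in every library and 8 to 16 with a library left out (8 without SCM replicate 1), and in Wnt5a 21 became 16 to 24. Between SCM and QCM 2 became 4 with DESeq2, without a fold cutoff or with only these conditions, 7 with the block and 1 to 2 with a library left out (1 without QCM replicate 2, 3 or 4 or SCM replicate 1, 5 or 6). With anti-Ptk7 in SCM 3 became 5 with DESeq2, 1 without a filter, 6 with the block, 0 with only these conditions and 1 to 3 with a library left out (1 without IgG replicate 1, 4, 5 or 6 or anti-Ptk7 replicate 2). In Wnt5a 2 became 1 with DESeq2, with at least 10 counts or with only these conditions and stayed 2 with a library left out. The cause was not tested where none is named.

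Over all genes, the 58 called in QCM were 178 with the block, 102 without a fold cutoff and 123 without number 1. The 140 between SCM and QCM were 264 with DESeq2, 496 with the block, 267 without a cutoff, 265 with only these conditions and 280 without number 1. With anti-Ptk7 in SCM 190 were 295 with DESeq2, 399 with the block, 422 without a cutoff and 86 with only these conditions, and in Wnt5a 137 were 255 with the block and 398 without a cutoff. Without a cutoff SCM had 1842 instead of 942 and Wnt5a 3386 instead of 1576. Voom on quantile-normalized counts split its calls into 550 higher and 297 lower in SCM (768 and 174 in edgeR) and 1015 and 562 in Wnt5a (1285 and 291), and 122 and 48 between SCM and QCM (118 and 22; 113 and 40 with voom on TMM-scaled counts). The precision for genes with few counts, Cnfn and Tgm1 first, was also limited by counting, and the part of depth in these changes was not tested.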
